A study of Rattus norvegicus with 6 samples.

Results

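The miR-23, miR-27 and miR-24 genes of the rat lie in 2 paralogous clusters, Mir23a, Mir27a and Mir24-2 on chromosome 19 and Mir23b, Mir27b and Mir24-1 on chromosome 17. Members were chosen by gene symbol alone, which found 5 of the 32883 genes in the small RNA table, among 458 genes with a miRNA symbol. They were Mir23a (ENSRNOG00000035644), Mir27a (ENSRNOG00000035597) and Mir24-2 (ENSRNOG00000035501) of the chromosome 19 cluster, and Mir23b (ENSRNOG00000035467) and Mir27b (ENSRNOG00000035576) of the chromosome 17 cluster. Mir24-1 was not analysed here.

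The 6 libraries each came from 1 clonal line of INS-1(832/13)::mCherry, a rat insulinoma line used as a beta-cell model, into which a human insulin gene and an mCherry-tagged mouse insulin gene had been introduced. All 6 lines were grown in 7.5 mM glucose, and all carry a genome-edited deletion of the silent maternal copy of the Prader-Willi syndrome (PWS) imprinted domain. The 3 Control lines (5-9, 2 and 16) keep the active paternal copy, and the 3 PWS lines (3, 19-1 and 19-4) have lost it as well. Lines 2 and 16 were isolated after line 5-9 had gone through another round of transfection without a paternal deletion. The PWS lines also descend from line 5-9. Lines 19-1 and 19-4 are subclones of 1 edited line, so that the PWS group holds fewer editing events than lines.

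Each cluster is transcribed as 1 primary transcript from which Drosha and then Dicer cut the separate microRNAs, so its members share a start of transcription but not their later processing and turnover. A microRNA finds its target mRNAs mainly through its seed, bases 2 to 8, and the paralogs of 1 family therefore share most predicted targets. miR-23, miR-27 and miR-24 are broadly expressed and best known from work on blood vessels, blood cells, muscle and fat.

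The mature sequences show how little separates the paralogs, which decides what the reads could tell apart. They are the RefSeq entries of assembly GRCr8, 5′ to 3′, with the seed in capitals and, in miR-23 and miR-27, also the 1 base that differs between a and b.
miR-23a-3p: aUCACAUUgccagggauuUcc
miR-23b-3p: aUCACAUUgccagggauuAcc
miR-27a-3p: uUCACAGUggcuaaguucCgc
miR-27b-3p: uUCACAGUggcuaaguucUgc
miR-24-3p: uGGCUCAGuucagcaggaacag
Both pairs are 21 bases long and identical over the first 18. Counted from the 5′ end, miR-23a and miR-23b differ by U19A, and miR-27a and miR-27b by C19U. A read that ends before base 19 does not separate a from b. The 3p arm of miR-24 is the same from both loci, whereas the 5p arms from Mir24-1 and Mir24-2 are identical only over the first 16 of 22 bases. Reads of miR-24-3p in the Mir24-2 row can therefore come from either cluster, and the 2 sources cannot be told apart. Among 692 distinct mature rat sequences, no sequence beyond each pair had the seed of miR-23 or of miR-27, and none beyond miR-24-3p had that of miR-24.

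miR-128 is shown because its seed overlaps that of miR-27, and miR-3074 because its gene lies at the Mir24-1 locus on the opposite strand. In miR-128-3p the capitals again mark the seed, and the 7 letters of the miR-27 seed occupy its bases 1 to 7. In miR-3074 the capitals mark 20 bases that are complementary, in 1 run, to miR-24-1-5p.
miR-128-3p: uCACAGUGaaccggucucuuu
miR-3074: GAUAUCAGCUCAGUAGGCACcg

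The libraries held 7373691 to 16480475 reads, of which miRNA rows took 88.46 to 90.02%. Values are normalized reads, read numbers that the authors divided by a size factor per library, and every value above 0 was a whole number of reads. The 36 rows named Snord116, a snoRNA family of the deleted domain, summed to 5557 to 8804 normalized reads in Control lines and 1.78 to 3.96 in PWS lines, as the labels have it. Beta-cell markers (Ins1, Ins2, Iapp, Mir375, Mir7a1, Mir7a2 and Mir184) summed to 1906100 to 3333900 in Control and 2053700 to 2846500 in PWS lines. Of 15 marker miRNA symbols of blood, endothelium, smooth muscle, striated muscle, liver and acinar cells, 9 had a row, 2 of them at 0. That of liver had none, and the 9 rows summed to 112 to 137 in Control and 109 to 150 in PWS lines. Line 19-4 stood apart: over the 177 miRNA rows with a mean of at least 100, the median absolute deviation from the 6-line median was 0.41 on the log2 scale, against 0.085 to 0.20 in the other 5 lines. Genotype differences of the members are therefore given with and without it. A difference in level may be one in RNA per cell or in the share of cells with the RNA, which bulk libraries cannot tell apart.

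All 5 member genes were well measured, with 1139 reads (Mir27a in line 19-4) to 440058 reads (Mir27b in line 3) behind each value. Poisson counting error was therefore 2.96% at most and 0.151% at least. Together they made up 3.36 to 4.07% of the miRNA reads of a library. Each gene had the same number of reads whether or not reads that fit several genes were counted. This equality does not show that no read fits both paralogs, since it held for Mir24-2 too, although miR-24-3p can come from either cluster.

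Mir27b was the most abundant member. Its level was 293893, 300509 and 268982 normalized reads in Control lines 5-9, 2 and 16, and 261356, 279483 and 266739 in PWS lines 3, 19-1 and 19-4. It ranked between 10 and 12 among miRNA rows in every library, and the 2 groups overlapped. The means were 287795 ± 16625 in Control and 269193 ± 9309 in PWS (SD, n = 3).

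Mir23b, its neighbour in the chromosome 17 cluster, came next. It was at 45391, 42548 and 34049 normalized reads in Control lines 5-9, 2 and 16, and at 33745, 33937 and 15290 in PWS lines 3, 19-1 and 19-4. All PWS lines were below all Control lines, but the gap between Control line 16 and PWS line 19-1 was smaller than the counting error of either value (0.476% and 0.556%), and line 19-4 was far below the rest. The means were 40663 ± 5901 in Control and 27657 ± 10711 in PWS (SD, n = 3), and the PWS mean was 33841 when line 19-4 was left out.

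In the chromosome 19 cluster, the Mir24-2 row was the highest. Control lines 5-9, 2 and 16 gave 10950, 13188 and 8939 normalized reads, and PWS lines 3, 19-1 and 19-4 gave 8681, 11315 and 5517. The lowest and the middle PWS value lay below every Control value, and line 19-1 above 2 of the 3 Control lines. Since miR-24-3p has 2 loci, this row is no measure of the chromosome 19 cluster alone.

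Mir23a was at 6044, 4335 and 4988 normalized reads in Control lines 5-9, 2 and 16, and at 5430, 4229 and 2170 in PWS lines 3, 19-1 and 19-4. PWS line 3 was above 2 Control lines, line 19-1 just below all 3, and line 19-4 again lowest. Mir27a was the least abundant member, at 2343, 1701 and 1835 in Control lines 5-9, 2 and 16 and 2233, 2053 and 1502 in PWS lines 3, 19-1 and 19-4. Lines 3 and 19-1 lay within the Control range, and line 19-4 just below it.

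**Figure D1:**
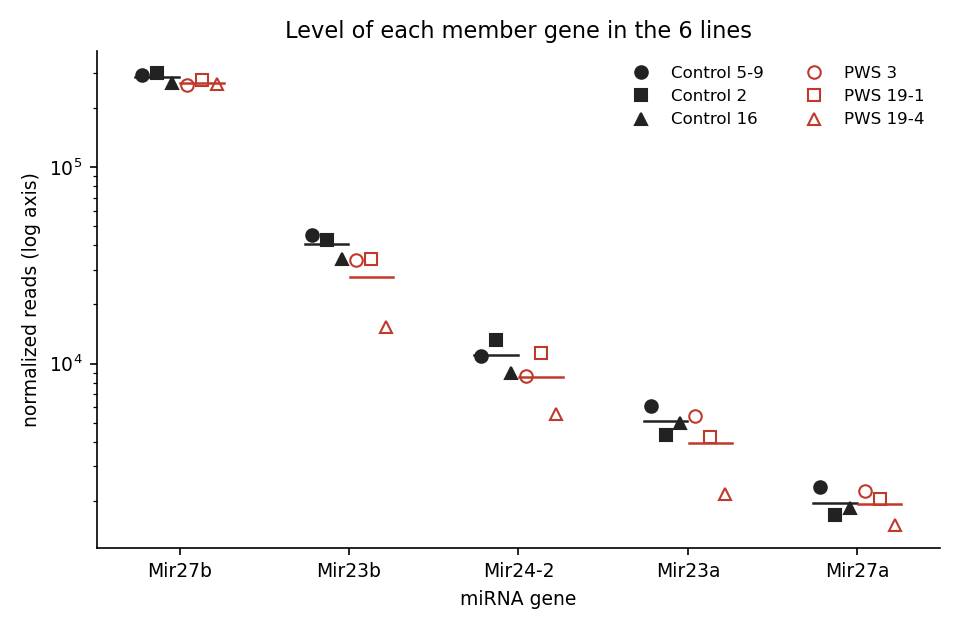
Normalized reads (log axis) of the 5 member genes in the 3 Control lines (filled black symbols) and 3 PWS lines (open red symbols), with a bar at each group mean. Mir27b lies between 261356 and 300509 in every line, whereas the open triangle, PWS line 19-4, is the lowest point of Mir23b (15290), Mir24-2 (5517), Mir23a (2170) and Mir27a (1502).

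The order Mir27b, Mir23b, Mir24-2, Mir23a, Mir27a held in all 6 libraries. It also held in 6 of 6 on a per-length scale, on which the mean level over the 6 lines was 287110 normalized reads per 100 hairpin bases for Mir27b, 35216 for Mir23b, 9042 for Mir24-2, 6044 for Mir23a and 2235 for Mir27a. Across lines, the only neighbours in this order whose per-length ranges overlapped were Mir24-2 (5109 to 12211) and Mir23a (2893 to 8059). Within each line Mir24-2 was still the higher, by 1.11 to 2.11 times per length.

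The members differed widely in how steady they were. Over the 6 lines the SD of the log2 level was 0.081 for Mir27b, and 1 of the 177 miRNA rows had a smaller one. For Mir27a it was 0.24, below the median of 0.32 over those rows. Mir24-2 (0.44), Mir23a (0.52) and Mir23b (0.56) were above it, with 130, 148 and 156 rows steadier than they were. These larger SDs rested on line 19-4. Without it, an alternative added after the values were seen, the SD was 0.25 for Mir24-2, 0.22 for Mir23a, 0.21 for Mir23b and 0.19 for Mir27a, beside a median of 0.24 over the 177 rows. Mir27b was the steadiest member on both counts, with an SD of 0.084 and 5 rows steadier without line 19-4.

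The comparison of PWS with Control lines asks whether loss of the paternal domain goes with another level of these miRNAs. None of the 5 members was called at an adjusted p under 0.1 by limma with Benjamini-Hochberg adjustment over the 4292 genes tested. In that fit 55 genes were called (1.28%), all of them lower in PWS lines, 8 of them miRNA rows (3.09% of 259). The study reported that nearly all of its differential small RNAs belong to the deleted domain, which PWS lines lack. These shares are therefore no rate for genes outside the domain. At an unadjusted p under 0.05, limma gave 1 of the 5 (Mir23b) against 5.96% of all genes tested, or 3.80% for a lower level in PWS lines. edgeR on the recovered reads called 0 members and had 1 at an unadjusted p under 0.05, and DESeq2 had 0 and 0.

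Mir23b had the largest difference, with a limma log2 fold change, PWS minus Control, of -0.64 (SE 0.28, 95% interval -1.22 to -0.05, limma adjusted p = 0.831). Over the alternatives the adjusted p of Mir23b spanned 0.508 to 1.00. Groups that did not overlap, with all PWS below all Control lines, were seen in 6.29% of all genes tested and in 12.7% of miRNA rows, so Mir23b was 1 of 33 such miRNA rows. The opposite pattern, which no member had, was seen in 4.87% of all genes tested. With line 19-4 left aside, Mir23b in lines 3 and 19-1 was still below all Control lines, as were 15.1% of miRNA rows and 9.58% of all genes tested. Without line 19-4 the log2 difference was -0.25 (SE 0.19, interval -0.65 to 0.14, limma adjusted p = 0.988).

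The other members had smaller differences with intervals on both sides of 0. The log2 fold change was -0.46 (interval -1.09 to 0.16, limma adjusted p = 0.860) for Mir23a and -0.42 (interval -0.98 to 0.14, limma adjusted p = 0.860) for Mir24-2. Both were smaller without line 19-4, at -0.08 and -0.14, and that of Mir23a was -0.28 with lines 19-1 and 19-4 averaged to 1 sample. For Mir27b it was -0.10 (interval -0.48 to 0.29, limma adjusted p = 0.950), or -0.09 without line 19-4 and -0.03 under upper-quartile scaling, and for Mir27a -0.03 (interval -0.55 to 0.49, limma adjusted p = 0.986). Mir27a was on the other side of 0 without line 19-4, at 0.14, and also with upper-quartile or TMM scaling. The lower ends of the intervals lie at -0.48 or below, so equal levels are not shown.

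**Figure D2:**
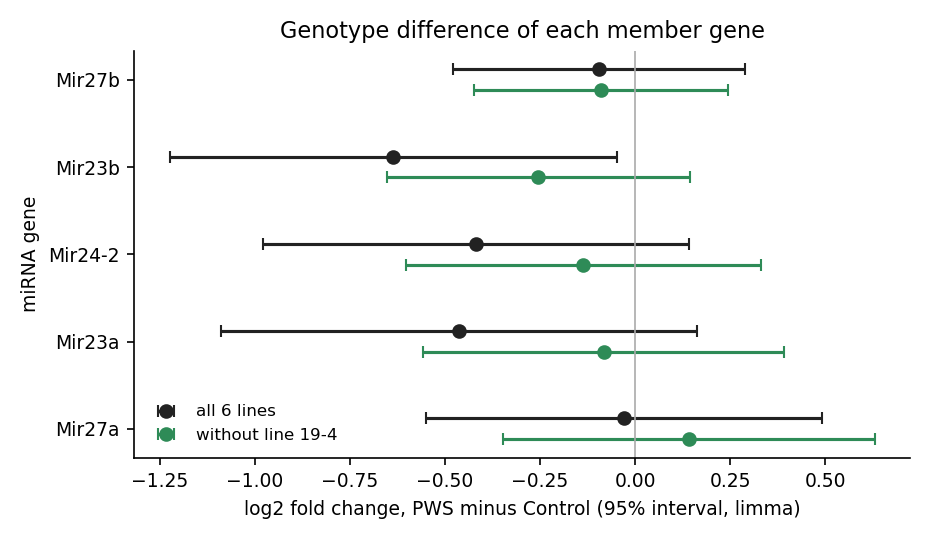
Log2 fold change, PWS minus Control, of each member with its 95% limma interval, over all 6 lines (black) and without line 19-4 (green). Only the black interval of Mir23b (-1.22 to -0.05) stays below 0, and the green interval of the same gene (-0.65 to 0.14) does not.

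All 5 members had a lower mean log2 level in PWS lines, as did 69.5% of the 259 miRNA rows and 49.7% of all genes tested. The median log2 fold change was -0.42 over the members, -0.14 over miRNA rows and 0.00 over all genes, and with line 19-4 left out 4 of the 5 were lower, while under upper-quartile or TMM scaling Mir27a was not. Without that line the median was -0.09 over the members and -0.07 over miRNA rows, of which 58.8% were lower in PWS lines.

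For every member but Mir27b, PWS line 19-4 lay farthest from the 6-line median, by unequal amounts. Set against the median of the other 5 lines, the log2 level of Mir23a in line 19-4 was -1.20, that of Mir23b -1.16 and that of Mir24-2 -0.99. Mir27a was at -0.45 and Mir27b at -0.07, beside a median of -0.39 over the 177 miRNA rows and a range of -1.10 to 0.37 between their lowest and highest decile. Only 12 and 15 of these rows lay lower than Mir23a and Mir23b, whereas 135 lay lower than Mir27b. In this line both miR-23 paralogs, from different chromosomes, were thus about equally low, and each was lower than the miR-27 gene beside it. The depth of line 19-4 (7373691 reads) was the lowest of the 6 and close to that of Control line 2 (7634142 reads), and its part in this was not tested.

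**Figure D3:**
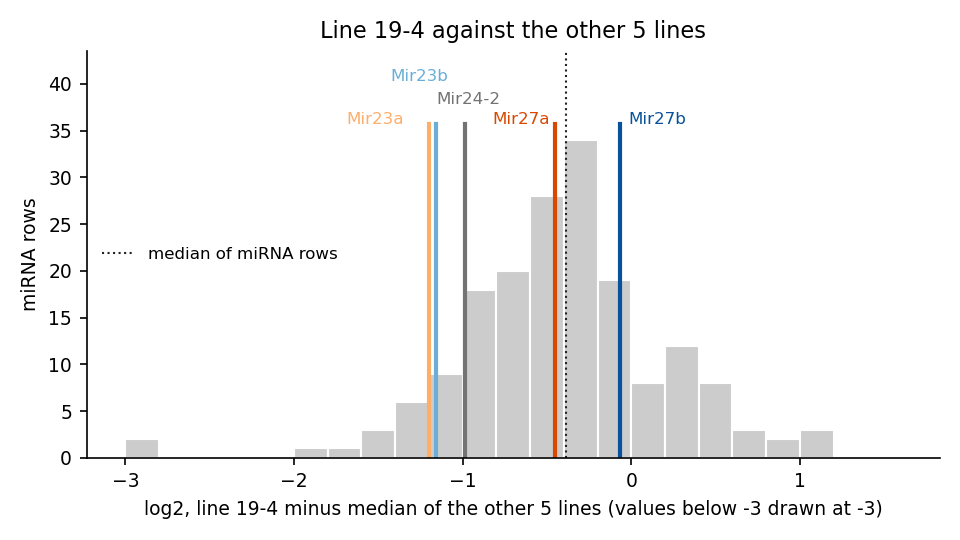
Histogram of the log2 level of 177 miRNA rows in PWS line 19-4 minus the median of the other 5 lines, with the 5 members as coloured vertical lines and the median of the rows dotted. Mir23a (-1.20), Mir23b (-1.16) and Mir24-2 (-0.99) lie in the left part, Mir27a (-0.45) near the median of -0.39 and Mir27b (-0.07) to its right.

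The other lines deviated less. Control line 5-9 had every member above its 6-line median, by 0.10 for Mir27b to 0.42 for Mir23b, and the median of all miRNA rows was 0.18 above in that line. In Control line 2, the chromosome 17 members were above their medians (Mir23b by 0.32, Mir27b by 0.13) and Mir23a and Mir27a below (at -0.10 and -0.19). Mir24-2 was on the side of the chromosome 17 members there, at 0.41. In PWS line 3, Mir23a was at 0.22 and Mir27a at 0.20, whereas Mir23b (-0.01) and Mir27b (-0.07) were close to their medians and Mir24-2 was at -0.19.

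**Figure D4:**
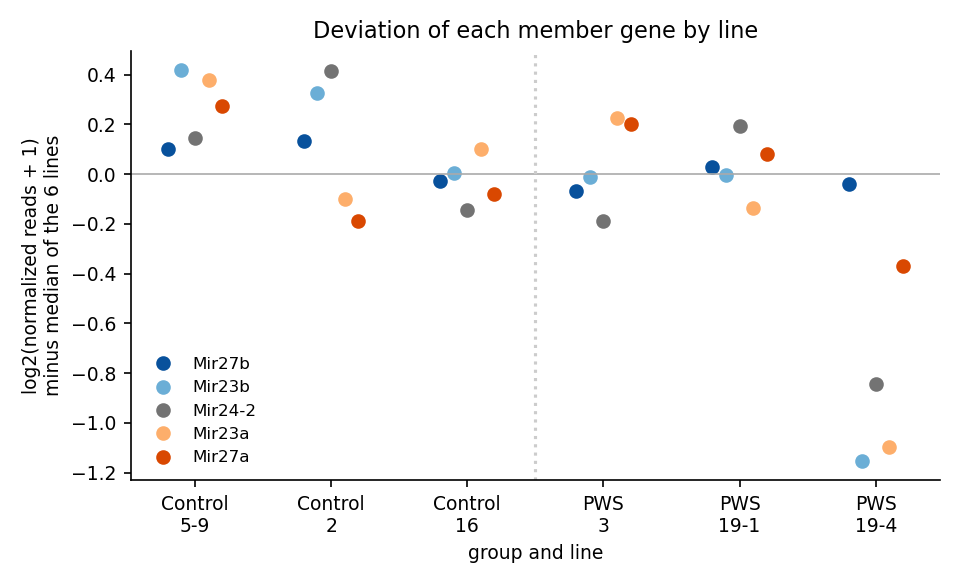
Deviation of each member, in log2(normalized reads + 1), from its own median over the 6 lines, by line. In line 19-4 Mir23b, Mir23a and Mir24-2 lie far below 0 while Mir27b stays near it, and in Control line 2 the 2 blue points (chromosome 17) and the grey point of Mir24-2 lie above 0 and the 2 orange points (Mir23a and Mir27a) below it.

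Similarity among the 5 members, measured as the root mean square distance between centred log2 profiles, therefore depended on 1 line. Over 6 lines the closest of the 10 pairs were Mir23a with Mir23b (0.21), Mir23b with Mir24-2 (0.21) and Mir27a with Mir27b (0.23), and the cluster neighbours Mir23b and Mir27b were the farthest apart (0.47). Without line 19-4 those neighbours were the closest pair (0.13), followed by the cluster neighbours Mir23a and Mir27a (0.14), and the same-seed pairs were at 0.22 and 0.20. The other pairs of the chromosome 19 cluster, Mir24-2 with Mir27a (0.33) and with Mir23a (0.36), were then the farthest apart of all 10, and Mir24-2 was nearer to Mir27b (0.16) and Mir23b (0.18) of the other cluster. With 6 libraries of shared depth scaling these distances are a description only.

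The balance of the clusters was read from ratios within a library, which need no size factor. Mir27b made up most of the chromosome 17 sum and Mir23a most of the chromosome 19 sum. The summed ratio thus mixes the families, and the ratios of each paralogous pair, given next, compare like with like. The reads of Mir23b and Mir27b together were 40.5, 56.8 and 44.4 times those of Mir23a and Mir27a in Control lines 5-9, 2 and 16, and 38.5, 49.9 and 76.8 times in PWS lines 3, 19-1 and 19-4. The chromosome 17 cluster was thus the main source of miR-23 and miR-27 reads in every line. The log2 ratio of the chromosome 19 to the chromosome 17 members differed by -0.18 between PWS and Control means. Its exact two-sided permutation test gave p = 0.7 (n = 3, SD 0.50 in PWS and 0.25 in Control). Leaving out 1 line moved this difference from -0.41 (without PWS line 3) to 0.09 (without line 19-4). With the subclones 19-1 and 19-4 averaged to 1 sample it was -0.04. An exact test of 3 lines against 3 cannot go below p = 0.1.

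The excess of the b form was far greater for miR-27 than for miR-23. Mir23b had 7.51, 9.82 and 6.83 times the reads of Mir23a in Control lines 5-9, 2 and 16, and 6.21, 8.02 and 7.05 times in PWS lines 3, 19-1 and 19-4. Mir27b had 125, 177 and 147 times the reads of Mir27a in the Control lines and 117, 136 and 178 times in the PWS lines. Neither ratio separated the groups, and line 19-4 was within the Control range for miR-23 and just above it for miR-27. Per hairpin length the ranges were 4.81 to 7.59 and 105 to 159. The log2 difference of a over b between PWS and Control was 0.17 for miR-23 (exact permutation p = 0.5) and 0.07 for miR-27 (exact permutation p = 0.8). Neither was stable when 1 line was left out. For miR-23 it was 0.17 without line 19-4 but 0.02 without Control line 2, 0.08 without PWS line 3, 0.28 without Control line 16 and 0.27 without line 19-1. For miR-27 it was 0.23 without line 19-4, 0.19 without Control line 5-9 and 0.04 without line 19-1, and it turned to -0.06 without Control line 2 and -0.07 without PWS line 3.

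Summed over paralogs, the miR-27 seed family kept within a narrow range, 263600 to 302200 normalized reads, nearly all of it from Mir27b. The miR-23 family ranged from 17460 to 51440, or 38170 to 51440 without line 19-4. The log2 difference of PWS from Control was -0.62 for miR-23 (exact permutation p = 0.2), -0.23 without line 19-4, and -0.09 for miR-27 (exact permutation p = 0.2). The miR-27 difference was also -0.09 without that line but -0.03 under upper-quartile scaling. For miR-24, taken as Mir24-2 with Mir3074 in place of Mir24-1, it was -0.41 (exact permutation p = 0.4). Leaving out 1 line moved the miR-24 difference from -0.65 (without line 19-1) to -0.14 (without line 19-4). The miR-24 total was almost entirely Mir24-2, since Mir3074 had 124 to 193 normalized reads.

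Within a cluster, the ratio of the miR-27 to the miR-23 gene set line 19-4 apart in both. Mir27b had 6.47, 7.06 and 7.90 times the reads of Mir23b in Control lines 5-9, 2 and 16, and 7.75, 8.24 and 17.4 times in PWS lines 3, 19-1 and 19-4. In the chromosome 19 cluster the same ratio was below 1 in every line. Mir27a had 0.388, 0.392 and 0.368 times the reads of Mir23a in the Control lines and 0.411, 0.485 and 0.692 times in the PWS lines. The members of the 2 clusters thus come in opposite order, miR-27 above miR-23 on chromosome 17 and below it on chromosome 19, per hairpin length as well (6.47 to 17.4 and 0.317 to 0.597).

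The ratio of Mir27a to Mir23a was higher in every PWS line than in any Control line. Its log2 difference was 0.43 (SD 0.05 in Control and 0.38 in PWS, exact permutation p = 0.1, the smallest possible), and 0.22 without line 19-4. After Benjamini-Hochberg adjustment over the 9 ratios and totals the exact p was 0.45. For Mir27b to Mir23b the log2 difference was 0.54 (exact permutation p = 0.2), and 0.17 without line 19-4. The ratio of Mir24-2 to Mir23a was 1.60 to 3.04, with a log2 difference of 0.05 (exact permutation p = 1), which turned to -0.05 without line 19-4. These within-cluster ratios were chosen after their values were seen. The smallest adjusted p over the 9 was 0.45.

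**Figure D5:**
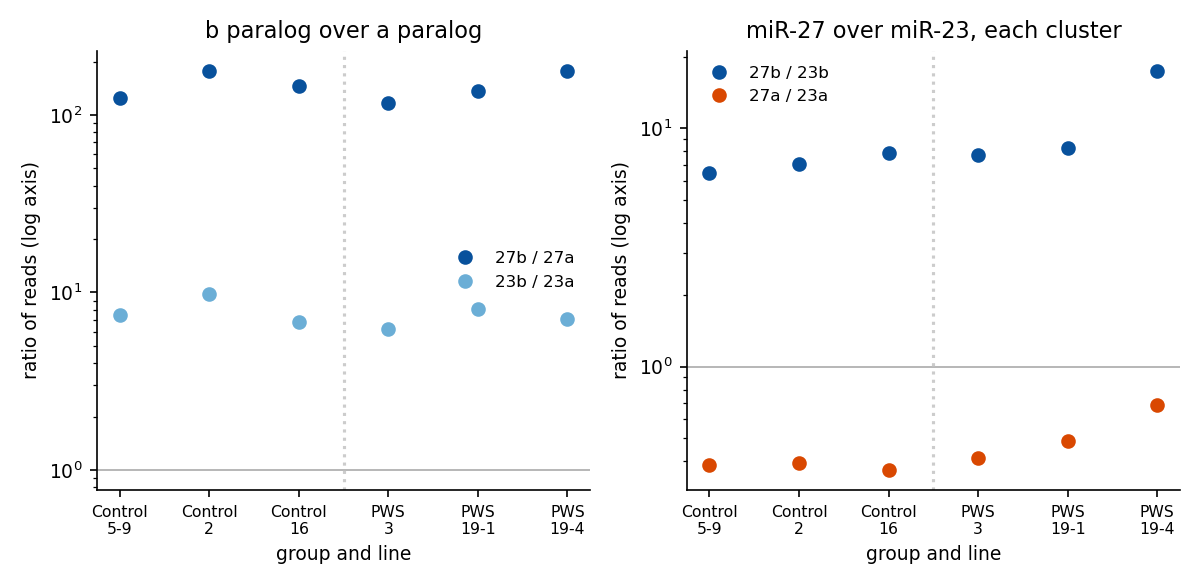
Ratios of reads within each library (log axes) for the 3 Control and 3 PWS lines, b over a paralog on the left and miR-27 over miR-23 within each cluster on the right. Mir27b exceeds Mir27a 117 to 178 times and Mir23b exceeds Mir23a 6.21 to 9.82 times, and line 19-4 has the highest miR-27 to miR-23 ratio of both clusters (17.4 and 0.692).

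Genes related by sequence or position were read in the same fit. Mir128-1 and Mir128-2, which encode the same mature miR-128-3p and so may share its reads, ranged from 3246 to 6016 and from 2579 to 5070 normalized reads, and were lowest in line 19-4. Their log2 fold change was -0.31 for both (limma adjusted p = 0.886 and 0.887), and without that line -0.06 for Mir128-1 and -0.03 for Mir128-2. Mir3074 was at -0.17 (limma adjusted p = 0.942).

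The chromosome 17 cluster lies within Aopep, which encodes an aminopeptidase and appears in the table as Npepo (ENSRNOG00000017505). It had 6.89, 18.3 and 7.72 normalized reads in Control lines 5-9, 2 and 16 and 5.94, 11.6 and 6.59 in PWS lines 3, 19-1 and 19-4, with a log2 fold change of -0.34 (SE 0.45, limma adjusted p = 0.918). Fancc, a Fanconi anaemia gene beside it, had 14 reads over all 6 libraries, and Zswim4, beside the chromosome 19 cluster, had 13, too few to be tested. Libraries of RNA below 200 bases hold only fragments of mRNAs, so these values say little on the host transcripts.

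The miRNAs with profiles most like those of the clusters were found by the same distance among 171 miRNA symbols outside the members with a mean of at least 100, where Mir196b-2, the 1 symbol with a further row at that level, was taken once. For Mir23a plus Mir27a they were Mir384 (0.068), Mir22 (0.097) and Mir186 (0.098), against a median distance of 0.33. For Mir23b plus Mir27b they were Mir30d (0.055), Mir129-2 (0.068) and Mir129-1 (0.074), against a median of 0.28. Mir27b held most reads of that sum, so its profile shows little of the lower Mir23b level in line 19-4. The places without line 19-4 were also added after the values were seen. Mir384, Mir186 and Mir22 were then in places 1, 5 and 7 (distances 0.074, 0.097 and 0.10, median 0.24). Mir488 (0.075) and Mir101-2 (0.077) took places 2 and 3. For Mir23b plus Mir27b, Mir183 was then in place 1 (0.045) and Mirlet7d in place 3 (0.060). Mir30d was in place 2 (0.054), but Mir129-2 and Mir129-1 were in places 11 and 13 (0.073 and 0.079, median 0.20). Mir384, Mir22 and Mir186 all had their lowest value in line 19-4, at 25431, 100.2 and 5182 normalized reads. Mir30d ranged from 271313 to 331950 and so lay at about the level of Mir27b. None of the 6 rows nearest over 6 lines was called, with log2 fold changes of -0.40 (Mir384) to -0.10 (Mir30d). Without line 19-4 these were -0.11 for Mir384 and -0.03 for Mir30d, and those of Mir22 and Mir186 turned from -0.32 to 0.02 and from -0.17 to 0.12.

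The proteins that make and use miRNAs were represented by mRNA fragments of 16 genes (Drosha, Dgcr8, Xpo5, Ran, Dicer1, Tarbp2, Prkra, Ago1 to Ago4, Tnrc6a to Tnrc6c, Lin28a and Lin28b). Of these, 2 were at 0 in every library, 8 had enough reads to be tested and 0 were called by limma. A lower mean in PWS lines was seen in 2 of the 8, and their median log2 fold change was 0.15 against 0.00 over all genes tested.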

How the data were processed

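Small RNA libraries (below 200 bases, with unique molecular identifiers) were sequenced, 1 for each of 3 Control and 3 PWS lines. Per the submitters' processing notes and the study's methods, UMI-tools 1.0.0, cutadapt 1.18, Bowtie2 2.3.4.2, HTSeq 0.11.2, featureCounts and DESeq2 were used on build Rnor_6.0. The authors deposited 2 tables of a signal, normalized reads per gene (reads divided by a DESeq2 size factor), counted with reads of several genes added to each (the study's option, used here) or left out. The values above 0 were whole multiples of 1 read (100% within a tolerance of 0.001). Deposited columns of the authors' own comparison (mean, log2 fold change, its error, p-values) were not used.

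Genes averaging 5 normalized reads or more were fitted by limma 3.58.1 (limma-trend, R 4.3.3) on log2(normalized reads + 1), with genotype as the only term, Benjamini-Hochberg adjustment over the 4292 genes tested and calls at an adjusted p under 0.1, the study's cutoff. Fold changes on this scale understate those of low genes. Before use, the limma step was run on simulated reads with known fold changes. Ratios and family totals were compared by exact two-sided permutation of lines. On the recovered reads, edgeR 4.0.16 called 59 genes and DESeq2 1.42.0 called 58, against 55 by limma. Lines are the replicates, so p-values measure the spread between clonal lines. These are not independent, since the others descend from line 5-9, and lines 19-1 and 19-4 are subclones of 1 edited line. Counting errors cover sampling of reads only.

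Members, lists and tests were chosen with earlier results of these data known. Named besides the members were Mir3074, Mir128-1, Mir128-2, the host and nearest genes of each cluster, and the 3 miRNAs with a mean of at least 100 nearest in profile to each cluster sum. Hairpins of all 5 members matched RefSeq by symbol. RefSeq assembly GRCr8 differs from the authors' build, so no coordinates are given.

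Alternatives were a pseudocount of 0.5 or 5, a minimum mean of 1, of 20 or none, scaling by upper quartile or TMM, edgeR, DESeq2, the other table, the replicate number as a block, lines 19-1 and 19-4 averaged, and each line left out.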

Additional observations from a re-analysis of the deposited data

How the results depend on the processing

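No member was called in any of the 18 alternatives, in which 41 to 66 genes were called in all. Leaving out each line in turn moved the log2 difference from -0.41 to 0.09 for the chromosome 19 to chromosome 17 ratio, 0.02 to 0.28 for Mir23a to Mir23b, -0.07 to 0.23 for Mir27a to Mir27b, -0.82 to -0.23 for the miR-23 total, -0.14 to -0.06 for the miR-27 total and -0.65 to -0.14 for the miR-24 total, and the number of called genes from 44 to 58. It moved the log2 fold change from -0.83 to -0.25 for Mir23b, -0.74 to -0.08 for Mir23a, -0.65 to -0.14 for Mir24-2, -0.14 to 0.14 for Mir27a and -0.14 to -0.06 for Mir27b. The sign turned for the chromosome 19 to chromosome 17 ratio without PWS line 19-4 (0.0927) and for Mir27a to Mir27b without Control line 2 (-0.0612) or PWS line 3 (-0.0704). For Mir27a it turned with upper-quartile scaling (0.0354), TMM scaling (0.00074), edgeR (0.0022), lines 19-1 and 19-4 averaged (0.0373), without Control line 5-9 (0.107) and without PWS line 19-4 (0.141). The cause was not tested. Over all genes the median log2 fold change was 0.07 under upper-quartile scaling, against 0.00.

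Whether replicate numbers pair the lines is not settled. Deviations of same-numbered lines correlated at 0.414, 0.218 and -0.0574, and those of differently numbered lines at -0.551 to 0.303. With 3 lines per group these values cannot decide it. With the replicate block, limma called 56 genes and 0 members, Mir23b had the lowest adjusted p (0.508), the log2 difference was -0.62 for the miR-23 total and -0.18 for the cluster ratio, and no call of a member changed. Exact tests of 3 lines against 3 cannot pass 0.05 and say nothing on stability.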
